A study of Mus musculus with 7 samples.

Results

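The cytosolic ribosomal protein genes are the housekeeping genes that encode the protein part of the ribosome outside the mitochondria. They were taken here as mouse protein-coding genes whose symbol begins with Rpl or Rps followed by a digit, plus Rplp0, Rplp1, Rplp2 and Rpsa, without the Rps6k kinases and without symbols of pseudogenes. Of 86 such genes, 4 lie on the X chromosome and were left out, which leaves 82 of the 20807 autosomal protein-coding genes. The 82 comprise 43 genes of the large subunit, 30 of the small subunit, 8 paralogues (Rpl3l, Rpl7l1, Rpl10l, Rpl22l1, Rpl36al, Rpl39l, Rps27l and Rps27rt) and Rps19bp1, which is named for a ribosomal protein it binds and is not one itself. They are spread over 18 chromosomes, with 14 of them on chromosome 7.

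The study used ATAC-seq, in which a transposase cuts open chromatin, on retinal endothelial cells of mice at postnatal day 6. The mice were of the FUCCI reporter genotype, whose fluorescence follows the phase of the cell cycle, and the 3 libraries of early G1 came from cells with no reporter colour and the 4 libraries of late G1 from red cells. Both groups were sorted as living CD31+ CD45- cells. Each group was deposited as 1 peak list made from its pooled libraries, so there is 1 value per group, no spread between replicates and no test between the groups, and nothing in the labels says that the libraries came from separate animals.

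Ribosomal proteins are needed in nearly equal amounts, since each ribosome holds 1 copy of most of them, and their genes are among the most strongly transcribed in growing cells. Their promoters often lack a TATA box and begin transcription within a tract of pyrimidines, the 5' TOP tract, through which translation of the mRNA follows growth signals. Ribosome production is turned up as cells pass through G1 and grow. A peak marks accessible DNA, and it does not measure transcription.

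Stretches around the start site are shown for 3 sets of these genes. They run from 80 bases before to 20 bases from the RefSeq start on the mouse assembly GRCm38.p6 and are credited to RefSeq. The words searched were AAGATGG (YY1), CCGGAAG (ETS factors), GGGCGG (SP1), GCATGCG (NRF1), CACGTG (E-box) and TATAAA (the word of a TATA promoter), each on both strands. A start tract was a C and at least 4 further pyrimidines that begin within 10 bases of the start, on the transcript's strand only. Capitals mark these words and tracts, and a stretch with no capitals holds none of them.

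The first set shows stretches that hold both a start tract and an ETS word. Rpl15, Rpl19 and Rpl31 were chosen for this after their sequences were seen.
Rpl15 (chr14:18270967-18271066, minus strand): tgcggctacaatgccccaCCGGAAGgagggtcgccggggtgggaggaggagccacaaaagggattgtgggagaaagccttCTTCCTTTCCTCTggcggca
Rpl19 (chr11:98026630-98026729, plus strand): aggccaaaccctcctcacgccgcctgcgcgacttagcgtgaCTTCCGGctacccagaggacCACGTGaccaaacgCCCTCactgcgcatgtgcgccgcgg
Rpl31 (chr1:39367771-39367870, plus strand): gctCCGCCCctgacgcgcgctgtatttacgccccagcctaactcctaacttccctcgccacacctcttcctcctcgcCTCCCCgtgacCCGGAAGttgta

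The second set shows the genes with the highest late G1 pileup in their window and Rpl5, which had a peak in the late list only. Rpl36 and Rpl8, which had no peak in either list, have no sequence shown.
Rps19bp1 (chr15:80264287-80264386, minus strand): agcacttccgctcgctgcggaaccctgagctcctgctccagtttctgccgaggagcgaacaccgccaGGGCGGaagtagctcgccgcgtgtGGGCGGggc
Rps9 (chr7:3703961-3704060, plus strand): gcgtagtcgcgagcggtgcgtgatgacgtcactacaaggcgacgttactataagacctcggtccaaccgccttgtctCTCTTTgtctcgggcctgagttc
Rplp0 (chr5:115559387-115559486, plus strand): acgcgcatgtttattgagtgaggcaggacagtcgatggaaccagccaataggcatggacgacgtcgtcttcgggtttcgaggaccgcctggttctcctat
Rpl5 (chr5:107900448-107900547, plus strand): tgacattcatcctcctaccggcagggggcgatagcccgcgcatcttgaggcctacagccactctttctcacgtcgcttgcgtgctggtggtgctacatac

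The third set shows the genes whose windows were most fully covered in late G1, and it was chosen after the values were seen.
Rps3a1 (chr3:86142649-86142748, minus strand): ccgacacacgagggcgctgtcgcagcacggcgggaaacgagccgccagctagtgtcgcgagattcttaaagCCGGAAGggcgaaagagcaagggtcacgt
Rpl24 (chr16:55966195-55966294, plus strand): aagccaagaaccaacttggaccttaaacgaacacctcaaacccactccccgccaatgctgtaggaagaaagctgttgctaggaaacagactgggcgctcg
Rpl9 (chr5:65391412-65391511, minus strand): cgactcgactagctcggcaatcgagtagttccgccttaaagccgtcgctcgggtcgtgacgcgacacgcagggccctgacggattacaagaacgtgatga

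A promoter entry was matched for 62 of the 82 genes and for 15687 of all autosomal protein-coding genes. The stretch searched ran from 250 bases before to 50 bases after the start. A start tract was found in 35 of the 62 (56.5%), against 31.4% of all promoters. The ETS word was found in 24 (38.7%), against 12.6%, and the YY1 word in 9 (14.5%), against 6.42%. The SP1 word stood in 37 (59.7%), against 48.8%. The NRF1 word, at 4 genes (6.45%), and the E-box, at 5 genes (8.06%), were near their shares of all promoters, 4.72% and 8.10%. TATAAA stood in 4 genes (6.45%), against 12.9%. A match is a description of letters and not a binding site. At least 1 of the YY1, ETS or SP1 words stood in 48 of the 62. The same count was not made over all promoters, of which 48.8% hold the SP1 word alone or with others.

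The window of a gene was all bases within 1 kb of its GENCODE 5' end, 2001 bases in all, and coverage is the percentage of those bases that lie inside a peak. In the early G1 list the windows of the 82 genes were covered on average to 65.5% ± 29.2 (SD over 82 genes), with a median of 70.9%. The flanks 5 to 10 kb away on both sides were covered to 44.7% ± 16.5, so the windows held 1.46 times the coverage of the flanks. In the late G1 list the windows were covered to 24.9% ± 27.9, with a median of 17.5%, and the flanks to 16.8% ± 12.3, a ratio of 1.48. Over all autosomal protein-coding genes the early values were 57.4% and 44.7%, a ratio of 1.28, and the late values 24.6% and 15.1%, a ratio of 1.63. With shorter lists, of only the peaks above the median score or of equal numbers of the strongest peaks, the late windows of the ribosomal protein genes were covered less than their flanks (7.91% and 8.52%), and over all genes the order stayed (9.98% and 7.999%). These SDs are spreads over genes and not over samples.

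The window was more covered than its own flank in 62 of the 82 genes in early G1 (75.6%, against 62.8% of all genes) and in 41 in late G1 (50%, against 49.7%). The kilobase inside the gene was covered to 69.5% in early G1 and the kilobase upstream to 61.5%. The late G1 values were 28.0% and 21.7%. In 200 bp steps, coverage was highest at 100 bp into the gene in both lists, with 80.2% of the bases of that step inside a peak in early G1 and 40.0% in late G1. All genes reached 63.9% and 32.5% at the same place, and the steps of the ribosomal protein flanks lay between 34.6% and 52.9% in early G1 and between 11.98% and 24.1% in late G1.

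**Figure D1:**
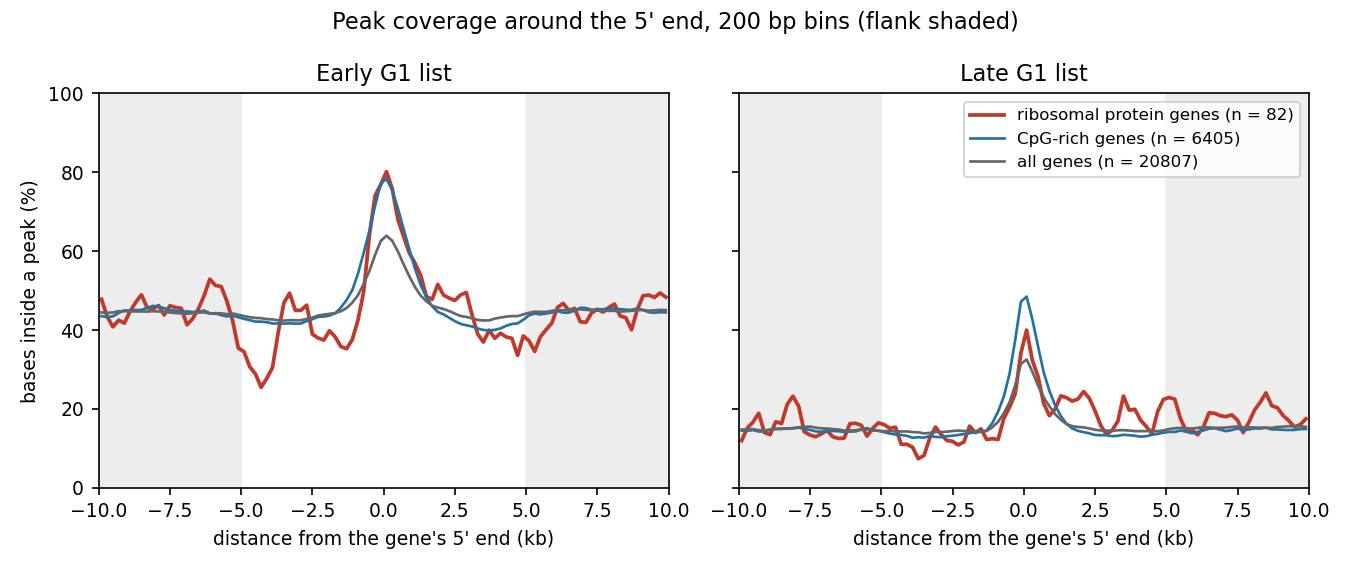
Percentage of bases inside a peak (vertical axis) in 200 bp steps by distance from the 5' end (kb, horizontal axis), in the early G1 list and in the late G1 list, for the 82 ribosomal protein genes, all autosomal protein-coding genes and genes with a CpG-rich window. The ribosomal protein genes peak at 80.2% in early G1 and 40.0% in late G1, next to 78.4% and 48.5% for CpG-rich genes.

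At least 1 bp of an early G1 peak lay in the window of 78 of the 82 genes, 95.1% (95% exact Clopper-Pearson interval 88.0% to 98.7%), against 91.1% of all autosomal protein-coding genes. A late G1 peak lay in the window of 50, 61.0% (49.6% to 71.6%), against 60.0%. Both lists had a peak at 48 genes (58.5%, against 56.1%), the early list alone at 30 (36.6%, against 35.1%) and the late list alone at 2 (2.44%, against 3.93%). Neither list had one at 2 genes (2.44%, against 4.92%). All these shares are near those of all genes. The intervals cover counting error over the 82 genes only.

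Counts at the 5' end itself were as follows. An early G1 peak lay over the 5' end of 64 genes, 78.0% (67.5% to 86.4%), against 63.9% of all genes, and the interval lies above that share. A late G1 peak lay over the 5' end of 34, 41.5% (30.7% to 52.9%), against 33.1%, a share inside the interval. The 5' end was covered in both lists at 27 genes (32.9%, against 25.2%), in early G1 alone at 37 (45.1%, against 38.7%), in late G1 alone at 7 (8.54%, against 7.9%) and in neither at 11 (13.4%, against 28.2%). Without the 8 paralogues and Rps19bp1, 73 genes remained, and 55 of them were covered in early G1 (75.3%, 63.9% to 84.7%). The lower limit was then at the share of all genes. In late G1 33 of the 73 were covered (45.2%, 33.5% to 57.3%), with the lower limit just above 33.1%.

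The 27 genes with their 5' end covered in both lists included Rpl9, Rpl13, Rpl13a, Rpl14, Rpl19, Rpl21, Rpl23a, Rpl24, Rpl26, Rpl27a, Rpl29, Rpl32, Rpl35a, Rpl36al, Rplp1, Rps3, Rps3a1, Rps7, Rps12, Rps15, Rps19, Rps20, Rps23 and Rps27a. The 7 covered in late G1 alone were Rpl5, Rpl12, Rpl23, Rplp0, Rps6, Rps25 and Rps29. The 11 covered in neither included Rpl4, Rpl8, Rpl17, Rpl36, Rpl37, Rps2, Rps10, Rps18, Rps24 and Rps28, and the other 37 were covered in early G1 alone. All but Rpl8 and Rpl36 of the 11 had an early peak elsewhere in the window.

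The genes were also set beside those with CpG-rich promoters. A window was called CpG-rich at a GC content of at least 50% and an observed to expected CpG ratio of at least 0.6, a comparison chosen after the data were seen. It held for 50 of the 82 genes (61.0%) and for 30.8% of all genes. Among all 6405 CpG-rich genes the 5' end was covered at 78.8% in early G1 and at 50% in late G1, next to 80% and 48.0% for the 50 CpG-rich ribosomal protein genes. For a late peak anywhere in the window the CpG-rich genes gave 73.9% and the CpG-rich ribosomal protein genes 62.0% (47.2% to 75.3%). The 32 ribosomal protein genes without a CpG-rich window were covered over the 5' end at 75% (56.6% to 88.5%) in early G1, against 57.3% of other genes of that kind. Their late share was 31.2% (16.1% to 50%), against 25.6%.

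The early G1 list held 606661 peaks with a median length of 1334 bp and the late list 383721 with a median of 681 bp, from pools of 137191808 and 124693948 fragments. The higher early coverage of these genes is therefore read beside the flank coverage of each list, and the part of list length and peak length in it was not tested. As a check of the sort, the 5' ends of 15 of 20 pan-endothelial genes were covered in early G1 and 3 of 20 in late G1. Pecam1, which encodes the CD31 used for sorting, had no peak in its window in either list. The 5' ends of 9 of 13 photoreceptor genes were covered in early G1 (69.2%) and 8 of 13 in late G1 (61.5%). Their mean window coverage was 66.8% and 35.9%, against 55.4% and 16.4% for the pan-endothelial genes. The exact intervals of the pan-endothelial and photoreceptor shares were wide and held the shares of all genes. These counts therefore did not set endothelial genes above all genes. For 14 genes of other retinal neurons the counts were 9 and 4, and for 9 genes of blood and microglia 2 and 0. Whether other retinal cells contribute to the peaks at ribosomal protein genes was not tested.

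**Figure D2:**
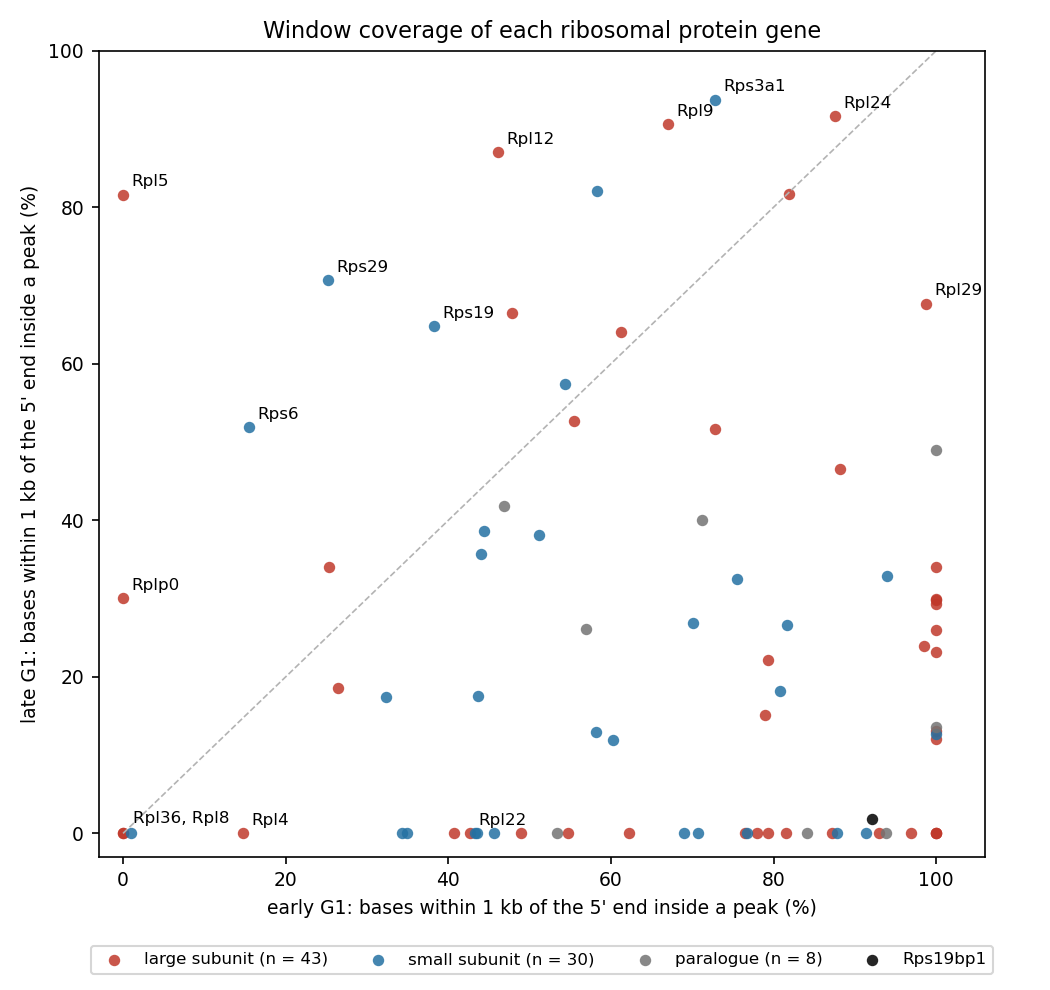
Percentage of bases within 1 kb of the 5' end that lie inside a peak, early G1 on the horizontal and late G1 on the vertical axis, 1 point per ribosomal protein gene, coloured by subunit, with the line of equal coverage dashed. Late coverage exceeds early coverage at 14 genes, 32 genes lie at 0 in late G1, and Rpl5 and Rplp0 lie at 0 in early G1.

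Late coverage of the window exceeded early coverage at 14 of the 82 genes (17.1%, against 17.7% of all genes), among them Rpl5, Rpl9, Rpl12, Rpl18, Rpl23, Rpl24, Rpl35a, Rplp0, Rps3a1, Rps6, Rps19 and Rps29. The window was covered completely in early G1 at 14 genes (17.1%, against 19.1%) and in late G1 at none (against 1.82%).

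The 5S particle, made of Rpl5, Rpl11 and a small ribosomal RNA, is built before it joins the large subunit and can bind the p53 regulator Mdm2. Rpl5 had no early G1 peak in its window, and 81.6% of that window lay inside a late G1 peak. This late peak was 1633 bp long (chr5:107899564-107901196, over the 5' end at 107900502) with a pileup of 24.5 fragments and a fold of 2.26 over local background. Pileup is the authors' mean number of fragments over a peak and fold its ratio to the local background. Both describe a pool of libraries, are not scaled to depth, and serve here only to describe and rank peaks within a list. The Rpl5 pileup stood above only 16.2% of late peaks, and in the flanks early and late coverage were 27.4% and 38.6%. Rpl11 showed the reverse order, with 54.8% of its window covered in early G1 and no late peak.

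The stalk of the large subunit recruits elongation factors and is built on Rplp0 with Rplp1 and Rplp2. Rplp0 was the other gene with a peak in the late list alone. Its late peak was 601 bp long (chr5:115559407-115560007) and began 60 bases before the 5' end, with a pileup of 269.4 and a fold of 17.6. This pileup was above that of 98.4% of late peaks, so Rplp0 and Rpl5 were alike in their list and far apart in peak height. Rplp1 was covered to 100% in early G1 and to 26.0% in late G1, with a late pileup of 24.4. Rplp2 was covered to 62.3% in early G1 and had no late peak. Rpl12, at the base of the stalk, was covered to 46.1% in early G1 and to 87.0% in late G1, where its peak was 2567 bp long with a pileup of 99.4. Its 5' end lies 55 bp from that of Lrsam1 on the other strand, so this peak covers both starts.

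Among the other large subunit proteins, Rpl3, which reaches to the peptidyl transferase centre, was covered to 81.6% in early G1 and had no late peak. The same held for Rpl10a, a protein often tagged to purify ribosomes from chosen cells (97.0%), for Rpl38, whose loss alters the axial skeleton of mice (87.2%), and for Rpl22, a protein needed by developing T cells (42.7%). Rpl13a, known also for silencing mRNAs after interferon, was covered to 98.6% in early G1 and 24.0% in late G1. The 5 lowest differences of late minus early coverage belonged to Rpl28, Rpl35, Rpl41, Rpl10a and Rps27rt. Rpl28, Rpl35 (at the exit of the protein tunnel) and Rpl41 (the smallest ribosomal protein) were covered over the whole window in early G1 and had no late peak. The early peak of Rpl28 was 8373 bp long, the longest at any of the 82 genes.

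Rpl36 and Rpl8, both of the large subunit, had no peak in either window. The 5' end of Rpl36 lies at chr17:56613416 and that of Rpl8 at chr15:76904078. Their flanks were not empty: early and late flank coverage was 58.7% and 42.7% at Rpl36 and 37.1% and 13.9% at Rpl8. Both windows were CpG-rich.

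All 30 small subunit genes had an early G1 peak in the window (exact interval 88.4% to 100%), and 39 of 43 large subunit genes (90.7%), next to 91.1% of all genes, so neither subunit stood apart from all genes in this count. Rps6, the substrate of the S6 kinases that act below growth signals, was covered to 15.5% in early G1 and to 51.9% in late G1. Its late peak was 1241 bp long and had a pileup of 23.04, among the 5 lowest of these genes. Rps19, the gene most often mutated in Diamond-Blackfan anaemia, was covered to 38.3% and 64.8%, with both peaks over the 5' end, an early pileup of 56.9 and a late pileup of 85.9. Its early fold of 3.12 was the highest of these genes after Rps29.

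Rpsa, which is also known as a laminin receptor, was covered to 69.0% in early G1 and had no late peak. Rps2, near the path by which mRNA enters the ribosome, was covered to 34.9% and also had no late peak. Rps3, another protein of that entry, was covered to 75.5% and 32.5%, with a late pileup of 23.7. Rps25, which some viral mRNAs need to start translation, was covered to 44.0% and 35.7%, with a late pileup of 29.2. The direction from early to late was thus not uniform among small subunit genes with a late peak.

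Rps29, a protein of the head of the small subunit, stood apart in pileup. Its early G1 peak (chr12:69159289-69159793, 505 bp) had a pileup of 590.9 and a fold of 14.0, and the next highest early pileups were 64.3 at Rps18, 57.1 at Rpl18, 56.9 at Rps19 and 46.4 at Rps21. Only 100 early peaks on the autosomes were higher. This peak did not reach the 5' end of Rps29 at 69159186. It lay over Rn7s1, a gene for the RNA of the signal recognition particle, annotated at chr12:69159295-69159594 on the plus strand, whose start is 109 bp from that of Rps29 and points the other way. The late peak was 1415 bp long, covered both starts, and had a pileup of 199.96 and a fold of 6.90. The shares of the 2 genes in this signal cannot be told apart in the peak lists.

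The 8 paralogues and Rps19bp1 all had their 5' end covered in early G1, and 1 of these 9, Rpl36al, in late G1. For the large subunit the shares were 79.1% and 41.9% and for the small subunit 70.0% and 50%. Mean window coverage was 69.1% and 26.1% at the large subunit, 56.6% and 24.8% at the small subunit and 77.6% and 19.2% at the 9 others. Genes known mainly from other tissues had early peaks in the window too. Rpl3l, of striated muscle, was covered to 46.9% in early G1 and 41.9% in late G1. Rpl10l, of testis, was covered to 53.3% and 0%, and Rpl39l, also of testis, to 71.2% and 40.0%. Early and late flank coverage was 54.8% and 18.7% at Rpl3l, 31.6% and 22.8% at Rpl10l, and 59% and 13.6% at Rpl39l. The early window of Rpl3l and the late window of Rpl10l were thus covered less than their flanks. Rpl39l had 2 late peaks in its window, the highest at a pileup of 22.4. Rps27rt, a retrogene of Rps27, was covered to 93.8% in early G1 and had no late peak.

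In the early list the peaks at these genes had a median pileup of 31.9 fragments (range 22.2 to 590.9), against 29.9 at all genes, and a median length of 2450 bp, against 2411 bp. The median of their ranks within the list was above 82.0% of early peaks, against 72.4% for all genes and 78.7% for CpG-rich genes. In the late list the median pileup was 33.2 (range 21.6 to 425.6), against 40.8 at all genes. The median length was 762 bp (range 238 to 5008 bp), against 999 bp. The median fold was 2.65, against 3.16, and the median rank was above 33.7% of late peaks, against 42.7% for all genes. The exact 95% intervals of the ribosomal protein medians ran from 29.0 to 32.9 for early pileup, from 30.1 to 47.4 for late pileup and from 533 to 1353 bp for late length, so each held the value of all genes. No peak was shared between windows of different ribosomal protein genes.

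**Figure D3:**
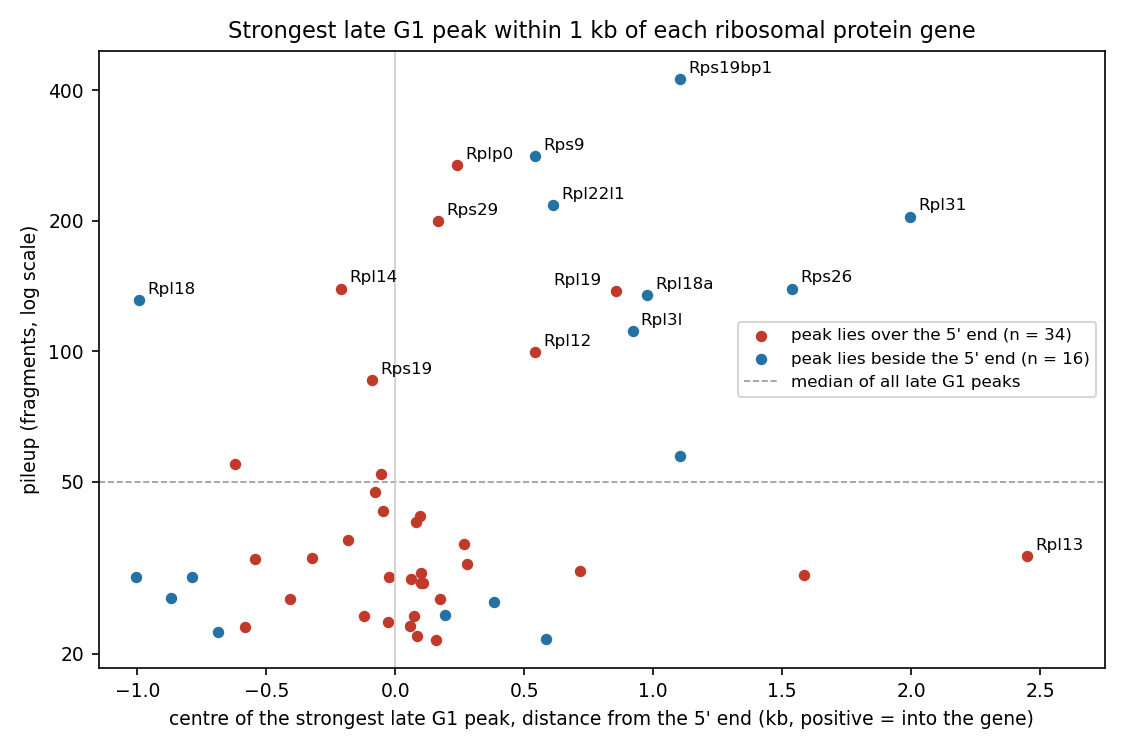
Pileup of the strongest late G1 peak in the window (fragments, log axis) against the distance of its centre from the 5' end (kb, positive into the gene), for the 50 genes with a late peak. The 34 peaks over the 5' end have a median of 32.7 and the 16 beside it 84.4, against 37.7 and 47.2 for all genes. Without the paralogues and Rps19bp1, the median beside it is 57.25, over 11 genes. The dashed line is the median of all late peaks, 49.8.

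The late peaks over the 5' end and those beside it were described apart. Of the 34 late peaks over the 5' end, the median pileup was 32.7 and the median length 698 bp, against 37.7 and 1218 bp for all genes. Pileup passed 100 at 4 of these 34 (11.8%, against 12.5%): Rplp0, Rps29, Rpl14 and Rpl19. Of the 16 genes whose late peaks lay beside the 5' end, 8 passed 100 (50%, against 24.2% of all genes). Their median pileup was 84.4, against 47.2 for all genes, and their median rank was above 66.7% of late peaks, against 48.1%. Without the paralogues and Rps19bp1, 11 genes with a late peak beside the 5' end remained. Their median pileup was 57.25 and their median rank above 54.7% of late peaks, and 5 of them passed 100 (45.5%). The centre of the strongest late peak lay within 200 bp of the 5' end at 21 of the 50 genes, 42.0%, against 23% of all genes with a late peak. Of the 50 strongest late peaks, 42 overlapped an early peak. This overlap was not counted over all genes, of which 91.1% had an early peak in the window.

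The 2 highest late pileups belonged to narrow peaks inside genes. At Rps19bp1, whose product binds Rps19, a peak of 282 bp (chr15:80263070-80263351) reached 425.6 at a fold of 18.3, and its centre lay 1104.5 bp inside the gene, so that it touched only 1.8% of the window. At Rps9, of the small subunit body, a peak of 238 bp (chr7:3704417-3704654) reached 282.3 at a fold of 18.4, with its centre 542.5 bp inside the gene. Rplp0, with its peak over the 5' end, came next at 269.4, then Rpl22l1, the paralogue of Rpl22, at 217.2, and Rpl31, of the rim of the protein tunnel's exit, at 204.6. The lowest late pileups were 21.6 at Rps12 and at Rpl27, 22.0 at Rpl35a, 22.4 at Rpl39l and 23.04 at Rps6. Since all duplicate fragments were kept, copies of 1 fragment can add to a pileup, and their part in the high peaks was not tested.

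The widest late peaks were those of Rpl13 (5008 bp), Rpl23 (3831 bp), Rpl31 (3181 bp), Rps3a1 (2838 bp) and Rpl12 (2567 bp). Apart from Rpl31 and Rpl12 their pileup was low, at 33.6 for Rpl13, 30.4 for Rpl23 and 33.2 for Rps3a1. Late coverage of the window passed 80% at 7 genes, of which those given here were named after their values were seen: 93.8% at Rps3a1, 91.6% at Rpl24, 90.7% at Rpl9, 87.0% at Rpl12, 81.7% at Rpl21 and 81.6% at Rpl5. The late pileup of the 7 ran from 24.5 at Rpl5 to 99.4 at Rpl12. Of the 3 most covered, Rps3a1 holds an ETS word in the stretch printed above, and Rpl24 and Rpl9 hold no searched word there.

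Among the 62 genes with a promoter entry, a late peak lay over the 5' end of 9 of the 35 with a start tract (25.7%) and of 14 of the 27 without (51.9%). Over all promoters the shares were 33.0% with and 34.6% without, and the difference among the ribosomal protein genes was not tested. In early G1 the shares were 82.9% with a tract and 74.1% without, and over all promoters 65.9% and 64.3%. The 5' end was covered in early G1 at 9 of 9 genes with the YY1 word (Rpl7a, Rpl7l1, Rpl13a, Rpl35a, Rps7, Rps15a, Rps16, Rps26 and Rps27), and in late G1 at 3 of 9. Without that word the shares were 75.5% and 37.7%, and over all promoters with it they were 66.7% and 36.6%. With the ETS word the counts were 18 of 24 (75%) in early G1 and 7 of 24 (29.2%) in late G1. Without it they were 31 of 38 (81.6%) and 16 of 38 (42.1%), and all promoters with the ETS word gave 74.5% and 43.1%. None of these differences was tested. The words were searched around the RefSeq start, and these peaks were counted at the GENCODE 5' end. At the RefSeq start, an early peak was gained at Rpl37, Rps2, Rps10, Rps18 and Rps25 and lost at Rplp2, all with the ETS word. Rpl12 and Rps24, without it, gained one too, so the order of the early ETS shares depends on the start used. A late peak was gained at Rpl15, Rpl22l1 and Rps24 and lost at Rps6, all with a start tract, and Rps25, without one, lost it.

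The start used for a gene mattered for some of them. RefSeq and GENCODE starts lay a median of 29.5 bp apart at the 62 matched genes, and over 100 bp apart at 14 of them. At the RefSeq start, a comparison added after the data were seen, an early peak lay over 55 of 62 starts (88.7%), against 65.9% of all 15687 matched genes and 78.9% of CpG-rich ones. At the GENCODE 5' end the same 62 genes gave 49 (79.0%). A late peak lay over 24 RefSeq starts (38.7%), against 35.1% of all and 50.9% of CpG-rich genes, and over 23 GENCODE 5' ends (37.1%). The gap was 3553 bp at Rps24, where late coverage went from 0% to 38.9% with the RefSeq start. At Rps2 the gap was 1947 bp, and coverage went from 34.9% to 100% in early G1 and from 0% to 16.8% in late G1. At Rps10 the gap was 1425 bp, and early coverage went from 0.95% to 72.2%. Rpl18 lost its late coverage of 34.1% over a gap of 2614 bp. Rpl5, Rpl23 and Rplp0 kept a late peak and no early peak over the RefSeq start. Rpl12 had both there, Rps25 had the early peak alone, and Rps6 had neither.

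Another protein-coding 5' end lay within 1 kb at 16 of the 82 genes (19.5%, against 12.9% of all genes), in each case on the opposite strand. The closest pairs were Rps28 with Ndufa7 at 10 bp, Rps27 with Rab13 at 44 bp, Rpl9 with Lias and Rps2 with Rnf151 at 53 bp, and Rpl12 with Lrsam1 at 55 bp. All 16 had an early peak in the window, and 7 had a late one (43.8%, 19.8% to 70.1%), against 43 of the 66 without such a neighbour (65.2%, 52.4% to 76.5%). These intervals overlap. The 5' ends of Rps2 and Rpl3l lay 9704 bp apart.

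**Figure D4:**
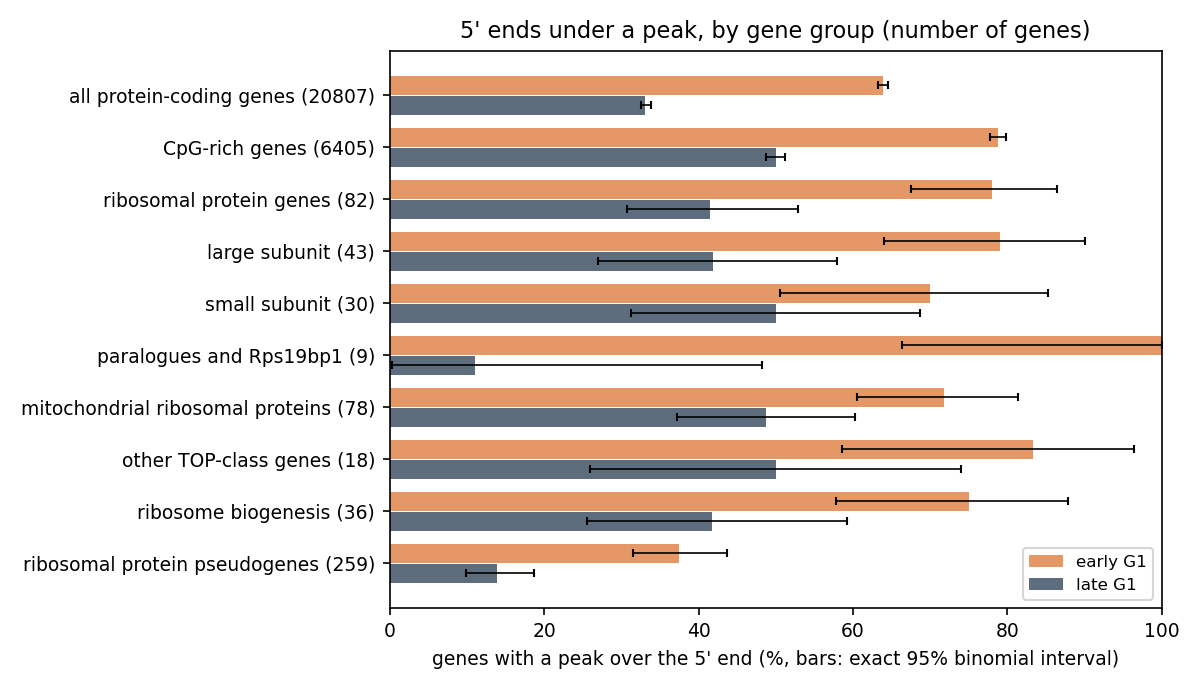
Percentage of genes with a peak over the 5' end in early G1 and in late G1, by gene group, with 95% exact Clopper-Pearson intervals for counting error. The ribosomal protein genes stand at 78.0% and 41.5%, next to 63.9% and 33.1% of all genes, their pseudogenes at 37.5% and 13.9%, and the paralogues with Rps19bp1 at 100% and 11.1%.

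Other genes of ribosome and translation biology were counted in the same way, next to 63.9% of all genes in early G1 and 33.1% in late G1. Mitochondrial ribosomal protein genes, which build the separate ribosome of mitochondria, had the 5' end covered at 71.8% of 78 in early G1 and 48.7% in late G1. Of 36 ribosome biogenesis genes, which make and trim ribosomal RNA and assemble subunits, 27 were covered in early G1 (75%) and 15 in late G1 (41.7%). Ddx21 and Nop10 had no peak in either window. Of 18 other genes of the 5' TOP class, mostly elongation and initiation factors, 15 (83.3%) and 9 (50%) were covered, with a mean of 74.0% of the window inside early peaks and 36.4% inside late peaks. The intervals of these groups overlap those of the ribosomal protein genes, and in early G1 the mitochondrial (60.5% to 81.4%), biogenesis (57.8% to 87.9%) and other TOP class (58.6% to 96.4%) intervals also hold the share of all genes. In late G1 the mitochondrial interval (37.2% to 60.3%) lay above the share of all genes. The late biogenesis (25.5% to 59.2%) and other TOP class (26.0% to 74.0%) intervals held it. Differences between the groups were not tested. Among ribosomal proteins outside the symbol rule, Fau was covered over the 5' end in both lists and Rack1 in early G1 alone.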

How the data were processed

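The deposited files used were 2 peak lists on mm10, 1 per group of pooled libraries. MACS2 2.2.7.1 was run by the authors in broad mode with no control, keeping all duplicates, at q-value limits of 0.05 and 0.1, per the file headers. Trimmomatic, STAR, bedtools and MACS2 are named in the submitters' processing notes. Per the file headers, each peak has a pileup (a signal of fragment coverage), a fold (the ratio to local background) and a −log10 q-value used as score. The heading of that last deposited column was damaged, and it was identified by column order. Starts count from 1.

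Genes came from GENCODE M21 on GRCm38, the same build. Overlap meant at least 1 bp, and windows, flanks and shares were computed in Python 3.11.15 with pandas 2.3.3 and SciPy 1.17.1. The overlap search was tested on simulated intervals and gave 0 wrong of 2000 windows. Genes named were the late-only and peakless ones, the 5 at each extreme of late pileup and of late minus early coverage, the 5 highest in early pileup and widest in late G1, and 16 of known role. Members and lists were chosen with earlier results of these data known. Alternatives changed the score threshold, list length, overlap, window, 5' end, flank and members, and the RefSeq start was added after the data were seen. Some genes are counted in the totals and not reported here by name.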

Additional observations from a re-analysis of the deposited data

How the results depend on the processing

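Of 124 alternative values for 17 results, 95 stayed within 1.5 times the count or within an interval around the value, and 29 did not. For medians the interval was exact. For mean coverage it treated the percentage as a share of 82 genes, so it is not an interval of the mean and was lenient. The early window mean, for example, had limits of 54.6% and 76.0%, and 75.1% with a window of 500 bp was counted as unchanged. Most of the 29 came from shorter lists, which hold fewer peaks by construction. With only the peaks of each list above its median score, 16 of the 82 genes had a late peak (against 24.5% of all genes). A peak in both lists was found at 13 (against 15.2%) and an early peak only at 52 (against 45.5%). A peak lay over the 5' end of 53 genes in early G1 and 7 in late G1. Early coverage of the window was then 56.2% (median) and 53.5% (mean) with flanks at 27.5%, late coverage 7.91% with flanks at 8.52%, and the late median pileup was 138.4. With the 191860 strongest peaks of each list, 46 genes had an early peak (against 40.9% of all genes) and 16 a late one (against 24.5%). Both were found at 9 (against 10.4%) and a late one only at 7 (against 14.2%). The 5' end was covered at 37 genes in early G1 and 7 in late G1. Early coverage was then 25.9% (median) and 37.1% (mean) with flanks at 15.6% and a pileup of 33.3, and late coverage was 7.91%, flanks 8.52% and pileup 138.4. In both of these settings late windows were covered less than their flanks, the reverse of the order in the full list, and all genes gave 9.98% and 7.999%. For all genes the shares with the 5' end covered were then 44.4% and 11.9% above the median score, and 30.2% and 11.9% at equal numbers. The late share of the ribosomal protein genes, 7 of 82, was thus below that of all genes in both settings. In the full list it was above it. Their early shares, 53 and 37 of 82, stayed above those of all genes. These differences were not tested. A window of 500 bp gave a median early coverage of 94.0%. One of 3 kb gave 48.8% and a mean of 51.6%, and a late pileup of 57.5. With it 13 genes were early only (against 15.4% of all genes) and 1 late only (against 0.495%), as a wider window takes in more peaks and more flank. No paired analysis was possible because each group was deposited as 1 pooled list, and for the same reason no replicate could be left out. The lowest pileup listed was 19 in both lists, and sites below it do not appear in them.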

Other observations

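The pseudogenes of ribosomal proteins, taken by symbol and of any pseudogene class, were covered less than the ribosomal protein genes. At 259 autosomal pseudogenes named for a ribosomal protein, an early G1 peak lay over the annotated 5' end of 37.5% and a late G1 peak over 13.9%. Their windows were covered to 38.9% in early G1 and 13.9% in late G1, below their flanks at 44.6% and 14.8%. Their bodies were covered to 35.8% and 16.4%, next to 46.9% and 16.9% for all 8924 processed pseudogenes. Processed pseudogenes are copies of an mRNA inserted in the genome without the parent's promoter. The set of 8924 was limited to that class and the set of 259 was not. How the reads of near-identical copies were placed is not given in the sources used here, and its part in these values was not tested.

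Beyond the 1 kb window, 43.8% of the exon bases of ribosomal protein genes lay in an early G1 peak and 15.9% in a late one, and for their introns the shares were 43.5% and 18.2%. Over all genes exons gave 45.2% and 15.4% and introns 43.8% and 14.1%.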
